A study of Homo sapiens with 6 samples.

Results

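The replication-dependent histone genes are the 89 rows of the deposited gene table whose symbol begins with HIST1H, HIST2H, HIST3H or HIST4H, out of 40173 rows in all. The rows were selected by symbol, without a threshold on any measured value. By class, 8 rows were H1 genes, 23 were H2A, 26 were H2B, 16 were H3 and 16 were H4 genes. By cluster, 68 were named HIST1, and these lay on chromosome 6 except for 2 pseudogenes on chromosome 13. Another 16 belonged to HIST2 and 4 to HIST3 on chromosome 1, and 1 to HIST4 on chromosome 12. The table gave the type mRNA to 70 of the rows, and the other 19 were pseudogenes or other RNAs. The RNA came from A549, a lung adenocarcinoma cell line, harvested a day after transfection with an siRNA against the lncRNA FAM83H-AS1 in the silenced group or with a negative control siRNA in the control group, with 3 libraries per group. All were made from total RNA with an Ion Proton RNA-Seq kit, and how the RNA was selected before library construction is not given in the sources used here.

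Replication-dependent histone genes encode the core histones H2A, H2B, H3 and H4, which wrap DNA into nucleosomes, and the linker histone H1, which binds the DNA between them. They are transcribed mainly in S phase, when new DNA has to be packed, and most of their mRNAs end in a conserved stem-loop in place of a poly(A) tail. The stem-loop is bound by SLBP, and the U7 snRNP cuts the transcript just after it. A few of these genes, among them HIST1H1C, HIST1H2AC and HIST1H2BK, are also known to yield polyadenylated transcripts, mostly in cells that have stopped dividing.

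The stem-loop is shown first because it is what sets these mRNAs apart from nearly all others in the table. In GENCODE 29 transcripts, 71 of the histone genes had a coding transcript, and 36 of these had enough annotated sequence after the stop codon to hold the element. It was searched as a stem of 6 base pairs that begins with GG and ends with CC, with a loop of 4 bases that begins with TTT and GU pairs allowed in the stem. It was found in 31 of the 36 genes, and so in 31 of the 71 with a coding transcript. Of 19669 coding genes in all, without a limit on annotated length, 101 held it (0.5135%), and 70 of these were other genes. The histone genes held 5 forms, and 1 gene is given for each. Capitals mark the stem and loop and lower case marks the flanking 3′-UTR bases. The first form was found in 17 histone genes, the second in 5, the third in 5, the fourth in 3 and the fifth in 1.
HIST1H2AC: caaaGGCTCTTTTCAGAGCCcccct
HIST1H4B: caatGGCCCTTTTCAGGGCCgccca
HIST1H2BC: caaaGGCTCTTTTAAGAGCCaccca
HIST2H4A: caaaGGCCCTTTTTAGGGCCgacca
HIST1H2AG: caacGGCTCTTTTCAGGGCCaccca
The elements start 43 bases after the stop codon in HIST1H2AC (GRCh38, plus strand, chr6:26124145-26139116), 24 in HIST1H4B (minus strand, chr6:26026815-26027252), 36 in HIST1H2BC (minus strand, chr6:26114873-26123926), 35 in HIST2H4A (plus strand, chr1:149832659-149839767) and 50 in HIST1H2AG (plus strand, chr6:27133042-27135291). In HIST1H2AC the annotated transcript continued for 1114 bases past the element, and in HIST1H4B for 86 bases. The coordinates are those of GENCODE 29, whereas the labels name GRCh37 for the deposited counts.

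Of the 89 histone genes, 14 had no count in any library, among them 6 of the type mRNA, and 34 had counts but too few to be tested. The remaining 41 were tested, 4 of H1, 11 of H2A, 10 of H2B, 7 of H3 and 9 of H4, all of the type mRNA. The filter asked for at least 0.906 CPM (a gene's counts scaled to the library total) in at least 3 libraries. Of the 41, 22 had fewer than 3 silenced libraries over that limit and passed with the help of control libraries, and a gene that passes only where it is high has to look lower. Counts over the tested genes are therefore descriptions here.

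In the whole series, library totals ranged from 9738291 to 17742643 counts, control replicate 3 being the deepest. The silenced libraries held 30.7% of the FAM83H-AS1 level of the control libraries, with 14.5, 16.0 and 17.3 CPM in control replicates 1, 2 and 3 and 4.59, 4.44 and 5.57 CPM in silenced replicates 1, 2 and 3 (log2 fold change -1.70 ± 0.15 SE, adjusted p = 7.99e-05). The epithelial keratins KRT8 and KRT18 were abundant, at 951 CPM or more in each library. Other genes described for A549 were low or absent, with 2 counts in all for ALDH1A1 and at most 2.44 CPM for AKR1B10, while CDKN2A, a locus deleted in A549, had between 48.2 and 74.8 CPM. In any library, the 4 leukocyte markers summed to at most 0.647 CPM, the 4 endothelial markers to between 3.79 and 6.39 CPM and the 4 fibroblast markers to between 26.2 and 38.4 CPM, most of it from COL1A1. Nothing in the labels says that the libraries came from separate cultures, so that the p-values measure only the spread between these libraries.

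Control replicate 3 stood apart from the other 5 libraries. RNAs that are made without a poly(A) tail (1017 rows of snRNAs, snoRNAs, vault RNAs, Y RNAs, 5S and 5.8S rRNAs and the like) summed to 39124 CPM in control replicate 3, compared with 4197 and 6706 CPM in control replicates 1 and 2 and between 3910 and 6485 CPM in the silenced replicates. Their level in control replicate 3 was thus 7.18 times the mean of the other controls. Of these rows, 135 were tested, and 40 were lower and 0 higher after silencing at an adjusted p under 0.05. Their median log2 fold change was -1.33. Without control replicate 3, 7 were lower and the median was -0.42. Their part in the histone values was not tested. The main counts and the changes of the called genes are therefore given with and without that library.

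Histone mRNA was lower after silencing in all 5 classes. The 89 genes together summed to 246, 216 and 383 CPM in control replicates 1, 2 and 3 and to 121, 98.1 and 135 CPM in silenced replicates 1, 2 and 3, so that every silenced library was below every control library. The silenced mean was 42.0% of the control mean, and 51.1% of it when control replicate 3 was left out. These are sums over bulk samples, in which fewer cells in S phase and less histone mRNA per cell cannot be told apart. The smallest p that an exact permutation test can give for 3 against 3 libraries is 0.1.

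By class, the H1 genes summed to 37.9, 31.01 and 45.7 CPM in the control replicates and to 16.7, 12.4 and 18.6 CPM in the silenced replicates. The H2A genes summed to 48.7, 37.1 and 74.7 CPM against 20.5, 17.9 and 25.5 CPM. The H2B genes summed to 108, 98.5 and 144 CPM against 51.0, 44.0 and 54.9 CPM. In each of these classes the lowest control library was well above the highest silenced library, and control replicate 3 was the highest of all. The H3 genes summed to 19.6, 20.04 and 53.7 CPM against 11.1, 6.94 and 13.1 CPM, and the H4 genes to 31.2, 29.6 and 64.6 CPM against 22.2, 16.8 and 23.1 CPM. For H3 and H4 the groups did not overlap either, but control replicate 3 was more than 2 times the level of each other control library.

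Relative to the control mean, the silenced mean was 41.6% for H1, 39.8% for H2A, 42.7% for H2B, 33.4% for H3 and 49.6% for H4. Against control replicates 1 and 2 alone, the same means were 46.1%, 49.6%, 48.3%, 52.3% and 68.1%. H3 was therefore the class with the lowest silenced share in all 6 libraries and no longer so without control replicate 3, and H4 kept the highest share in both.

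**Figure D1:**
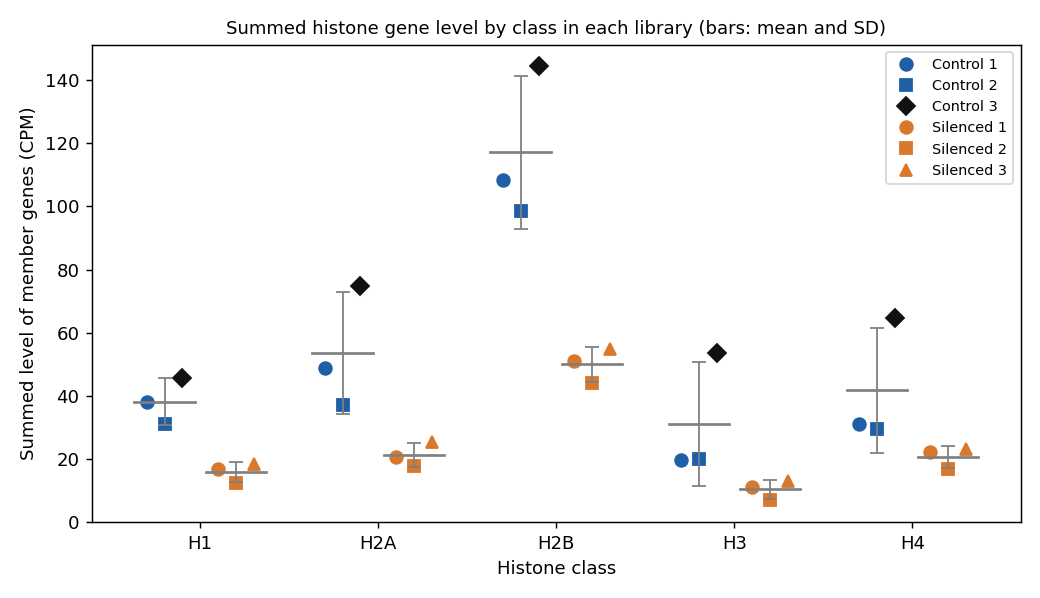
Summed level of all histone genes of a class (vertical axis, CPM) for the classes H1, H2A, H2B, H3 and H4 (horizontal axis), with 1 point per library and grey bars for the mean and SD of the 3 libraries of a group. The 3 silenced libraries are below the 3 control libraries in each class, and control replicate 3 (black diamond) is the highest point of each class, up to 144 CPM for H2B.

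Among the 41 tested genes, 23 were called lower after silencing (more than 2-fold, with an adjusted p under 0.05 by edgeR's quasi-likelihood test) and 0 were called higher. Over all 15250 genes tested, 0.997% were called lower and 1.14% higher. At an adjusted p under 0.05 without the limit on the fold, 25 of the 41 fell, compared with 8.27% of all genes, and 0 rose, compared with 8.75%. The log2 fold change of the 41 genes ranged from -2.92 to -0.26 with a median of -1.30, whereas the median of all tested genes was -0.00067. The snRNAs, snoRNAs and similar RNAs described above had a median of -1.33 over their tested rows. In 25 of the 41 genes every silenced library was below every control library, a pattern seen in 17.5% of all tested genes. Of the 19 tested genes that were over the filter's limit in all 3 silenced libraries as well, 13 were called lower.

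These counts depended on single libraries. Without control replicate 3, 9 genes were called lower (0.677% of all genes tested), 11 had an adjusted p under 0.05 (5.93%), and the median was -0.90. Without silenced replicate 1, 8 were called lower (0.559%) and the same number had an adjusted p under 0.05 (3.8%), with a median of -1.39. Without silenced replicate 2, 14 were called lower. Over the whole table, 278 genes were called in either direction in that fit, compared with 326 in all 6 libraries. All 9 calls made without control replicate 3 were among the 23 made with it, and all 8 made without silenced replicate 1 were too. With both control replicate 3 and silenced replicate 1 left out, 7 genes had an adjusted p under 0.05 (3.16%): HIST1H1C, HIST1H2AC, HIST1H2BC, HIST1H2BD, HIST1H2BJ, HIST1H2BK and HIST1H4B. Against control replicates 1 and 2 alone, every silenced library was below both controls in 26 of the 41 genes, compared with 21.8% of all tested genes.

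**Figure D2:**
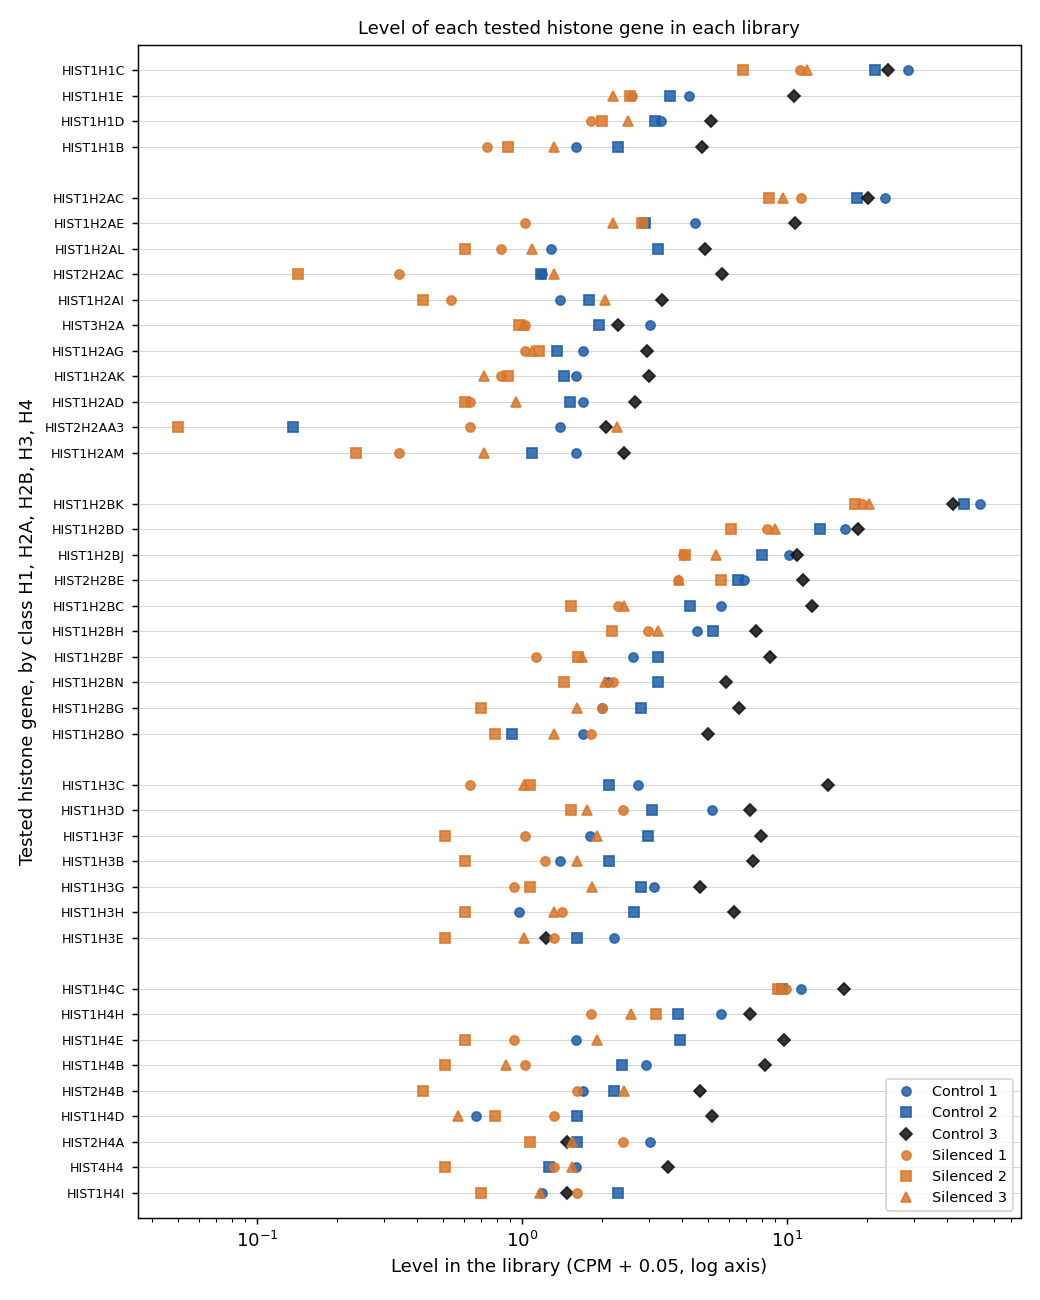
Level of each of the 41 tested histone genes (rows, grouped by class and ordered by mean count) in each library (horizontal axis, CPM + 0.05, log axis), with a blue circle, a blue square and a black diamond for control replicates 1, 2 and 3 and orange symbols for the silenced replicates. The silenced points are mostly to the left of the control points, and the black diamond is the rightmost point of 33 rows.

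The linker histone genes showed the change in all 4 tested members, which all had an adjusted p under 0.05, and 3 were called lower. HIST1H1C, which encodes histone H1.2, was at 28.6, 21.4 and 23.9 CPM in control replicates 1, 2 and 3 and at 11.1, 6.75 and 11.8 CPM in silenced replicates 1, 2 and 3. It fell to 40.5% of the control level (log2 fold change -1.30 ± 0.18 SE, adjusted p = 0.00138), and control replicate 3 lay between the other controls, so that the change without that library was -1.33 ± 0.21 (adjusted p = 0.00328).

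HIST1H1E, which encodes H1.4, was at 4.22, 3.54 and 10.6 CPM in the controls and at 2.54, 2.50 and 2.16 CPM after silencing. Its log2 fold change of -1.39 ± 0.39 (adjusted p = 0.0315) became -0.70 ± 0.26 without control replicate 3 (adjusted p = 0.101). HIST1H1B, which encodes H1.5, was at 1.54, 2.25 and 4.73 CPM against 0.684, 0.832 and 1.26 CPM (log2 fold change -1.63 ± 0.44, adjusted p = 0.0279), and without control replicate 3 its value was -1.01 ± 0.40 (adjusted p = 0.124). HIST1H1D, which encodes H1.3, was at 3.29, 3.11 and 5.08 CPM against 1.76, 1.94 and 2.45 CPM, and it fell by less than 2-fold (log2 fold change -0.91 ± 0.27, adjusted p = 0.0428, and -0.62 ± 0.28 without that library, adjusted p = 0.175). In all 4 genes every silenced library was below every control library, a pattern seen in 17.5% of all tested genes. Only HIST1H1C among them kept an adjusted p under 0.05 without control replicate 3. The other linker genes were HIST1H1A, with 1 to 20 counts per library, the testis gene HIST1H1T, with at most 3 counts, and a pair of pseudogenes with at most 3 counts.

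Of the 11 tested H2A genes, 7 were called lower and 4 did not pass the test, and without control replicate 3 the calls of HIST1H2AC and HIST3H2A were the 2 that remained. HIST1H2AC was at 23.2, 18.2 and 20.04 CPM in control replicates 1, 2 and 3 and at 11.2, 8.51 and 9.59 CPM in silenced replicates 1, 2 and 3. It fell to 47.8% of the control level (log2 fold change -1.07 ± 0.14, adjusted p = 0.000893), and the value without control replicate 3 was nearly the same (-1.08 ± 0.16, adjusted p = 0.00266). The groups were far apart and control replicate 3 was not the highest control.

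HIST1H2AE was at 4.42, 2.85 and 10.6 CPM in the controls and at 0.976, 2.77 and 2.16 CPM after silencing, so that the groups only just did not overlap (log2 fold change -1.62 ± 0.47, adjusted p = 0.0385). Without control replicate 3 its value was -0.86 ± 0.38 and the call was lost (adjusted p = 0.162). HIST1H2AL was at 1.23, 3.20 and 4.85 CPM against 0.781, 0.555 and 1.04 CPM (log2 fold change -1.98 ± 0.47, adjusted p = 0.0161), and this call was lost too (-1.48 ± 0.47, adjusted p = 0.0599). HIST3H2A, the H2A gene of the HIST3 cluster, was at 2.98, 1.90 and 2.25 CPM against 0.976, 0.925 and 0.966 CPM. It fell to 40.9% of the control level (log2 fold change -1.29 ± 0.30, adjusted p = 0.0145) and, like HIST1H2AC, was not highest in control replicate 3 and kept its call without it (-1.33 ± 0.36, adjusted p = 0.0345).

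Some H2A genes overlapped between the groups. HIST2H2AC was at 1.13, 1.12 and 5.62 CPM in the controls and at 0.293, 0.0925 and 1.26 CPM after silencing, with a log2 fold change of -2.22 ± 0.77 that did not pass the test (adjusted p = 0.0701). HIST1H2AI was at 1.34, 1.73 and 3.31 CPM against 0.488, 0.370 and 2.01 CPM (adjusted p = 0.180). HIST2H2AA3 had the widest scatter, with 1.34, 0.0864 and 2.01 CPM against 0.586, 0 and 2.23 CPM, and its log2 fold change of -0.26 ± 0.87 turned to 0.58 ± 1.04 without control replicate 3. Its coding sequence is identical to that of HIST2H2AA4, so that the reads of the pair cannot be told apart by those bases. The other called H2A genes, HIST1H2AK, HIST1H2AD and HIST1H2AM, had log2 fold changes between -2.05 and -1.41, and none of them kept an adjusted p under 0.05 without control replicate 3.

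Of 10 tested H2B genes, 6 were called lower and 7 had an adjusted p under 0.05, and 4 kept such a p without control replicate 3. HIST1H2BK, which had the most counts of all 89 genes, was at 53.5, 46.3 and 42.1 CPM in control replicates 1, 2 and 3 and at 19.04, 17.9 and 20.2 CPM in silenced replicates 1, 2 and 3. It fell to 40.5% of the control level (log2 fold change -1.30 ± 0.11, adjusted p = 4.8e-05). Control replicate 3 was the lowest of the controls for this gene, and the change without it was -1.38 ± 0.11 (adjusted p = 5.47e-05).

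HIST1H2BD was at 16.4, 13.2 and 18.5 CPM in the controls and at 8.30, 6.10 and 8.92 CPM after silencing (log2 fold change -1.05 ± 0.17, adjusted p = 0.00305). HIST1H2BJ was at 10.1, 7.95 and 10.8 CPM against 4.003, 4.07 and 5.35 CPM (log2 fold change -1.10 ± 0.19, adjusted p = 0.00372). Both fell by slightly less than 2-fold without control replicate 3, to -0.92 ± 0.19 (adjusted p = 0.01003) and -0.99 ± 0.21 (adjusted p = 0.0116). The groups were separate for both genes.

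HIST1H2BC was at 5.55, 4.23 and 12.3 CPM in the controls and at 2.25, 1.48 and 2.38 CPM after silencing. Its log2 fold change was -1.87 ± 0.39 (adjusted p = 0.00920) and -1.25 ± 0.28 without control replicate 3 (adjusted p = 0.0164). HIST2H2BE, the tested H2B gene of the HIST2 cluster, was at 6.79, 6.48 and 11.4 CPM against 3.81, 5.55 and 3.87 CPM, and it fell by less than 2-fold (log2 fold change -0.92 ± 0.25, adjusted p = 0.0300). Without control replicate 3 its value was -0.59 ± 0.22 (adjusted p = 0.105). HIST1H2BH and HIST1H2BF were also called lower, at -1.08 and -1.77, and lost their calls without that library (-0.81, adjusted p = 0.0579, and -1.003, adjusted p = 0.0630), whereas HIST1H2BG, HIST1H2BN and HIST1H2BO did not pass the test, and HIST1H2BO turned from -1.07 to 0.018 without control replicate 3.

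Of 7 tested H3 genes, 4 were called lower, and 3 of these without control replicate 3 as well. HIST1H3C was at 2.67, 2.07 and 14.2 CPM in control replicates 1, 2 and 3 and at 0.586, 1.02 and 0.966 CPM in silenced replicates 1, 2 and 3. Control replicate 3 was 6.005 times the mean of the other controls, and the log2 fold change of -2.92 ± 0.71 (adjusted p = 0.0181) was -1.44 ± 0.37 without it (adjusted p = 0.0292).

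HIST1H3D was at 5.14, 3.02 and 7.15 CPM in the controls and at 2.34, 1.48 and 1.71 CPM after silencing (log2 fold change -1.49 ± 0.33, adjusted p = 0.0120). HIST1H3G was at 3.08, 2.76 and 4.61 CPM against 0.879, 1.02 and 1.78 CPM (log2 fold change -1.49 ± 0.33, adjusted p = 0.0127). For both genes the groups did not overlap, and both kept their calls without control replicate 3, at -1.14 ± 0.32 (adjusted p = 0.0411) and -1.21 ± 0.36 (adjusted p = 0.0475).

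HIST1H3F was at 1.75, 2.94 and 7.92 CPM in the controls and at 0.976, 0.462 and 1.86 CPM after silencing. It was called lower (log2 fold change -1.94 ± 0.56, adjusted p = 0.0379) although silenced replicate 3 was above control replicate 1, and the call was lost without control replicate 3 (-1.05 ± 0.47, adjusted p = 0.170). HIST1H3B was at 1.34, 2.07 and 7.39 CPM against 1.17, 0.555 and 1.56 CPM and did not pass the test (log2 fold change -1.75 ± 0.59, adjusted p = 0.0650). HIST1H3H had an adjusted p of 0.0682 and HIST1H3E of 0.182, and in HIST1H3E control replicate 3 was the lowest control, at 1.18 CPM.

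Among the H4 genes, 3 of 9 were called lower, and without control replicate 3 only HIST1H4B was. HIST1H4C, the H4 gene with the most counts, was at 11.2, 9.50 and 16.3 CPM in control replicates 1, 2 and 3 and at 9.86, 9.15 and 9.44 CPM in silenced replicates 1, 2 and 3. Its log2 fold change of -0.40 ± 0.19 did not pass the test (adjusted p = 0.172), and it was -0.12 ± 0.16 without control replicate 3 (adjusted p = 0.653). The silenced libraries lay close together and overlapped with control replicate 2.

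HIST1H4B was at 2.88, 2.33 and 8.22 CPM in the controls and at 0.976, 0.462 and 0.818 CPM after silencing, and fell to 16.4% of the control level (log2 fold change -2.61 ± 0.52, adjusted p = 0.00764). Without control replicate 3 the value was -1.77 ± 0.38 (adjusted p = 0.0135). HIST1H4H was at 5.55, 3.80 and 7.15 CPM against 1.76, 3.14 and 2.53 CPM (log2 fold change -1.16 ± 0.29, adjusted p = 0.0197, and -0.90 ± 0.29 without that library, adjusted p = 0.0678). HIST1H4E was at 1.54, 3.89 and 9.64 CPM against 0.879, 0.555 and 1.86 CPM, with groups that overlapped (log2 fold change -2.19 ± 0.60, adjusted p = 0.0295, and -1.27 ± 0.50 without that library, adjusted p = 0.118).

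HIST2H4B was at 1.64, 2.16 and 4.61 CPM in the controls and at 1.56, 0.370 and 2.38 CPM after silencing, and did not pass the test (adjusted p = 0.219). HIST1H4D, HIST2H4A, HIST4H4 and HIST1H4I did not pass either, with adjusted p between 0.103 and 0.682. HIST2H4A and HIST2H4B have identical coding sequences, so that their reads cannot be told apart by those bases.

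The level in control replicate 3 differed among the histone genes. It was the highest library in 33 of the 41 tested genes, compared with 15.0% of all tested genes, and its median ratio to the mean of control replicates 1 and 2 was 2.16, compared with 1.001 over all tested genes. By class the median ratio was 2.04 for H1, 2.02 for H2A, 1.96 for H2B, 3.38 for H3 and 2.42 for H4. The 7 genes listed as also yielding polyadenylated transcripts (HIST1H1C, HIST1H2AC, HIST1H2BC, HIST1H2BD, HIST1H2BJ, HIST1H2BK and HIST2H2BE) had a median ratio of 1.20, and the other 34 tested genes one of 2.32. The ratios overlapped, from 0.844 to 2.51 in the 7 genes and from 0.626 to 6.005 in the others.

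**Figure D3:**
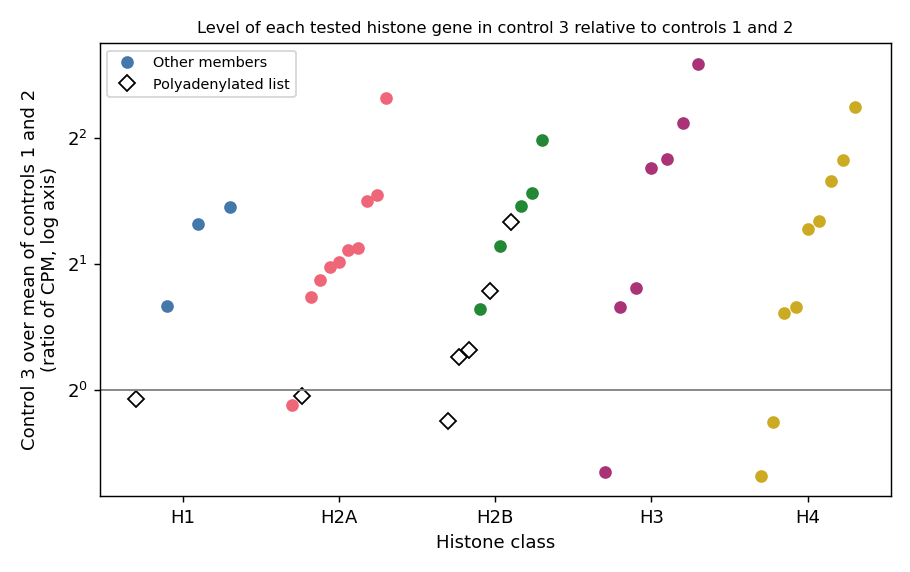
Level of each tested histone gene in control replicate 3 over the mean of control replicates 1 and 2 (vertical axis, ratio of CPM, log axis) by class (horizontal axis), with open diamonds for the 7 genes also known to yield polyadenylated transcripts. The ratios reach 6.005 for HIST1H3C. Of the open diamonds, HIST1H2BK, HIST1H1C and HIST1H2AC are below 1 and HIST1H2BC is the highest, at 2.51. HIST2H4A, HIST1H3E, HIST1H4I and HIST3H2A, which are not among the 7, are also below 1, down to 0.626 for HIST2H4A.

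The summed level of these 7 genes was 144, 118 and 139 CPM in control replicates 1, 2 and 3 and 59.8, 50.4 and 62.1 CPM in silenced replicates 1, 2 and 3. The silenced mean was 43.0% of the control mean and 43.8% of it without control replicate 3, so that the difference was as large without that library. All 7 had an adjusted p under 0.05 and 6 were called lower, and without control replicate 3 these counts were 6 and 4. Over all tested genes, 8.27% were lower at that p and 0.997% were called lower, and without that library 5.93% and 0.677%. The other 82 rows summed to 102, 98.5 and 244 CPM in the controls and to 61.7, 47.7 and 73.1 CPM after silencing. Their silenced mean was 41.1% of the control mean with control replicate 3 and 60.7% without it. Of their 34 tested members, 17 were called lower with that library and 5 without it. The difference between the lists was not tested. The lists also differed in depth, with mean counts over the 6 libraries of 63.7 to 405 in the 7 genes. Each other tested gene except HIST1H4C (137) had a lower mean count than these. Whether a call is kept through list or depth cannot be told apart here.

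**Figure D4:**
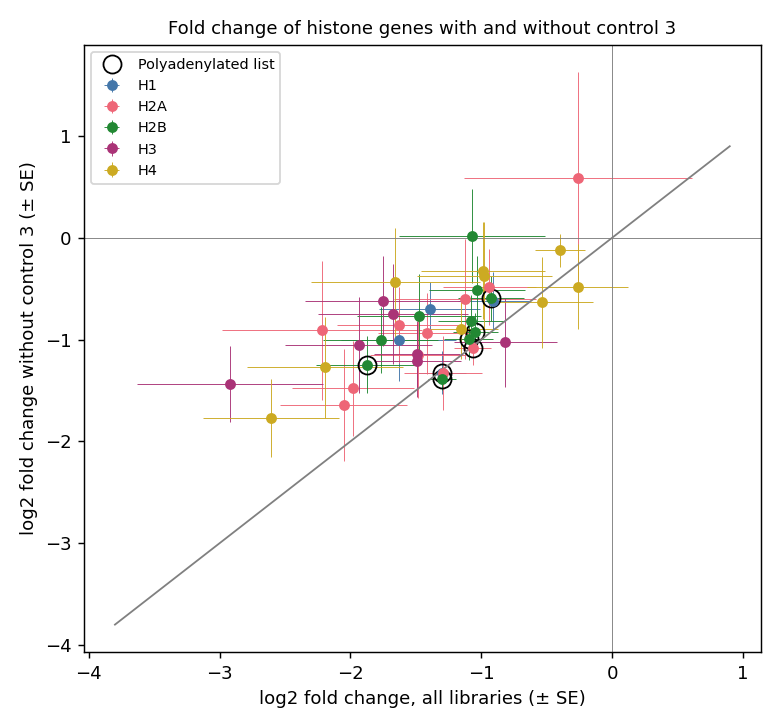
Log2 fold change of each tested histone gene in all 6 libraries (horizontal axis) and without control replicate 3 (vertical axis), each with its standard error, coloured by class, with rings around the 7 genes also known to yield polyadenylated transcripts and a line of equal values. Most points are above the line and below 0, HIST1H2BO and HIST2H2AA3 are above 0 on the vertical axis, and HIST1H2BK and HIST1H1C are at about -1.3 on both axes.

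By position, the HIST1 genes on chromosome 6 fell into 3 blocks in GRCh38. The first block, chr6:25726132-26322292, held 43 of the rows and 22 tested genes, of which 16 were called lower (median log2 fold change -1.49, and -1.003 without control replicate 3). The second, chr6:27125897-27147515, held 5 rows and 4 tested genes, of which HIST1H2BK and HIST1H2BJ were called lower (median -1.02, and -0.81 without). The third, chr6:27807075-27893843, held 18 rows and 8 tested genes, of which 4 were called lower (median -1.52, and -0.84 without), and none of these kept an adjusted p under 0.05 without control replicate 3.

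The summed level of the first block was 139, 120 and 232 CPM in the controls and 70.3, 56.2 and 76.5 CPM after silencing. The second block, in which HIST1H2BK held most of the counts, was at 67.3, 58.4 and 60.1 CPM against 26.1, 24.0 and 28.1 CPM. The third was at 14.6, 18.9 and 47.8 CPM against 10.4, 7.31 and 12.2 CPM. The control replicate 3 ratio of the sums was 1.79, 0.956 and 2.85 in the 3 blocks, so that the second block was the one in which that library did not stand out.

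Outside chromosome 6, the HIST2 genes summed to 20.3, 15.0 and 36.7 CPM in the controls and to 12.2, 8.60 and 15.1 CPM after silencing, so that silenced replicate 3 was just above control replicate 2. Of their 5 tested genes, HIST2H2BE had an adjusted p under 0.05 and 0 were called. The HIST3 genes summed to 3.50, 2.42 and 2.96 CPM against 1.17, 1.48 and 1.86 CPM, and HIST3H2A was their only tested member. HIST4H4, the only HIST4 gene, was at 1.54, 1.21 and 3.49 CPM against 1.27, 0.462 and 1.49 CPM and did not pass the test (log2 fold change -0.99 ± 0.47, adjusted p = 0.177).

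Many H2A and H2B genes lie head to head and share the DNA between their start sites. In the RefSeq promoter windows of GRCh38.p14 (250 bases before to 50 bases after each start), 66 of the histone genes were matched, and 11 pairs of an H2A and an H2B gene had overlapping windows. Both genes were tested in 7 of the pairs, and both were lower in the estimate in all 7. All 41 tested histone genes were lower in the estimate, so that no pair could show otherwise. Both genes passed an adjusted p of 0.05 in only 2 pairs, HIST1H2AC with HIST1H2BC and HIST1H2AD with HIST1H2BF. The partners did not always move by the same amount. HIST1H2AC had a log2 fold change of -1.07 and HIST1H2BC of -1.87, and without control replicate 3 the values were -1.08 and -1.25. HIST1H2AM was at -2.05 and HIST1H2BO at -1.07, and without that library at -1.64 and 0.018. HIST2H2AC was at -2.22 and HIST2H2BE at -0.92, and without that library at -0.91 and -0.59.

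The octamer ATTTGCAT, the site of the POU factor OCT1 in H2B promoters, was searched on both strands of the windows. It was found in 14 of 18 H2B windows and 11 of 16 H2A windows, but in 1 of 12 H3 windows, that of HIST1H3D, which RefSeq gives the same window as HIST1H2AD, and in 0 of 13 H4 and 6 H1 windows, compared with 1.802% of all 27305 windows. In 8 of the 11 pairs both windows held it, and in all 8 the bases around it were the same on opposite strands, so that a pair shares 1 octamer. The shared octamer of 2 pairs and that of HIST1H2BK, the gene with the most counts, are shown with the octamer in capitals.
HIST1H2AC: tgggcagagctATGCAAATgaggtatgaaa
HIST1H2BC: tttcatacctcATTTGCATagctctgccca
HIST1H2AG: tagaatcgcttATGCAAATaaggtgaagag
HIST1H2BJ: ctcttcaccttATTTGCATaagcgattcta
HIST1H2BK: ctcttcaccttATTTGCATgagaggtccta
These stretches come from the windows chr6:26123922-26124221 (plus strand, HIST1H2AC), chr6:26123877-26124176 (minus strand, HIST1H2BC), chr6:27132793-27133092 (plus strand, HIST1H2AG), chr6:27132746-27133045 (minus strand, HIST1H2BJ) and chr6:27146809-27147108 (minus strand, HIST1H2BK). The CCAAT box (CCAAT, both strands) was in each H1, H2A, H2B and H3 window but in 3 of 13 H4 windows, compared with 35.7% of all windows. The H1 box AAACACA was in 6 of 6 H1 windows, compared with 5.761% of all windows, and TATAAA in between 50.0% and 75.0% of the windows of each class, compared with 11.95%. A match describes letters in a window and does not show that a factor binds there.

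How far the reads of single histone genes can be separated differs between genes. The coding sequences were identical for HIST1H4J and HIST1H4K, HIST2H2AA3 and HIST2H2AA4, HIST2H3A and HIST2H3C, and HIST2H4A and HIST2H4B, which all code for the same protein within a pair. Of the tested genes, 9 overlap another annotated gene, and 6 of these overlap another histone gene, as HIST1H2BN does with HIST1H2AK and HIST1H2AL. Whether the counting used strand is not given in the sources used here, so that the values of overlapping genes are less certain.

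Most histone genes below the filter also had lower means after silencing when all 6 libraries were used. Of all 89 rows, 53 had a mean of at least 10 counts over the 6 libraries, which some reached through control counts and above all through control replicate 3, and 52 of these had a lower mean CPM in the silenced libraries. Only 12 of the 53 were below the filter, and the others were the 41 tested genes. The exception in all 6 libraries was the untested pseudogene HIST1H3PS1, with 0.741 CPM in the controls and 1.16 CPM after silencing. Against control replicates 1 and 2 alone the number was 48. The untested HIST1H2BB, HIST1H4J and HIST2H2AB were then higher after silencing (0.446, 0.294 and 0.701 CPM against 0.259, 0.292 and 0.603 CPM), as was the tested HIST2H2AA3. When all genes with a count were fitted, 75 histone genes could be tested, 45 were called lower and 0 were called higher, compared with 1.31% of all genes called lower in that fit, which was made with all 6 libraries only. Examples were HIST1H2AB, with 6, 2 and 56 counts in control replicates 1, 2 and 3 and 3, 2 and 3 counts in silenced replicates 1, 2 and 3, and HIST1H2BI, with 8, 17 and 63 counts against 8, 3 and 11 counts. In both, most of the control counts came from control replicate 3. In the fit of all genes with a count, HIST1H3C and HIST1H4E had standard errors of 0.29 and 0.29, compared with 0.71 and 0.60 in the main fit. For such genes its p-values take less account of the spread between libraries.

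The factors that make and process histone mRNA were then examined as a list of 39 genes, of which 38 were tested and U7 snRNA (RNU7-1), at 0.236 to 0.720 CPM in the controls, was below the filter. Of the 38, 6 fell and 3 rose at an adjusted p under 0.05, compared with 17% of all tested genes in either direction, and 0 were called, with a median log2 fold change of -0.04. SLBP, the stem-loop binding protein, was at 28.1, 36.5 and 35.1 CPM in the controls and at 39.1, 42.4 and 36.9 CPM after silencing, and its log2 fold change of 0.24 ± 0.11 did not pass the test (adjusted p = 0.147). NPAT, the activator of histone gene transcription, was at 29.3, 32.7 and 30.03 CPM against 34.7, 39.7 and 36.4 CPM (0.27 ± 0.09, adjusted p = 0.0636). Neither had a lower mean in the silenced libraries.

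Of the U7 snRNP proteins, LSM10 was at 52.0, 42.6 and 40.6 CPM in the controls and at 36.8, 29.04 and 33.7 CPM after silencing, and fell (log2 fold change -0.44 ± 0.12, adjusted p = 0.0269). LSM11 was at 10.5, 11.2 and 12.2 CPM against 9.76, 9.80 and 10.03 CPM and did not pass the test (adjusted p = 0.306). ZNF473, a zinc finger protein of the same machinery, had a log2 fold change of 0.33 ± 0.10 (adjusted p = 0.0506). The Sm proteins SNRPF and SNRPG, which are shared with the spliceosomal snRNPs, fell by 0.81 and 0.42 on the log2 scale (adjusted p = 0.00345 and 0.00960), and SNRPF was at 67.8, 61.8 and 62.9 CPM against 33.9, 29.3 and 46.2 CPM.

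Smaller changes were seen in other factors of the list. CSTF2 of the cleavage machinery, the helicase UPF1, which acts in histone mRNA decay, and the histone chaperone RBBP4 fell by 0.27, 0.26 and 0.25 on the log2 scale. SYMPK, the scaffold of the cleavage complex, CASP8AP2, which is needed for histone gene expression in S phase, and the uridylyltransferase ZCCHC6 rose by 0.28, 0.30 and 0.36. Without control replicate 3, 4 genes of the list fell and 2 rose, compared with 12.4% of all genes in either direction.

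The genes of the G1/S transition and of DNA replication, which are high in the cells that make histone mRNA, were examined next. All 41 were tested, 1 fell (8.27% of all tested genes did), 6 rose (8.75%) and 0 were called, so that the share past the test was that of all genes (17%), with a median log2 fold change of 0.04. The DNA ligase gene LIG1 was the gene that fell, at 76.5, 74.4 and 77.3 CPM in the controls and 60.9, 59.6 and 64.4 CPM after silencing (log2 fold change -0.30 ± 0.07, adjusted p = 0.0169). Of the genes that rose, RRM1, TK1, DTL, E2F1 and MCM10 did so by between 0.25 and 0.34 on the log2 scale. Without control replicate 3, 1 gene fell and 3 rose, compared with 12.4% of all genes in either direction.

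The replication-independent histone genes, whose mRNAs mostly carry a poly(A) tail, had smaller fold changes. Of 12 genes, 11 were tested, 2 fell (8.27% of all tested genes did) and 0 rose (8.75%), with a median log2 fold change of -0.21. H2AFZ, which encodes H2A.Z, was at 291, 269 and 251 CPM in the controls and at 199, 190 and 221 CPM after silencing (log2 fold change -0.41 ± 0.08, adjusted p = 0.00824). H3F3C, which encodes the H3.5 variant and is a close copy of H3F3B, was at 40.5, 37.9 and 28.2 CPM against 23.5, 24.9 and 25.7 CPM (-0.51 ± 0.13, adjusted p = 0.0211). Both groups were separate, and without control replicate 3 the values were -0.46 and -0.67, with 3 genes of the list lower at an adjusted p under 0.05, compared with 5.93% of all genes.

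**Figure D5:**
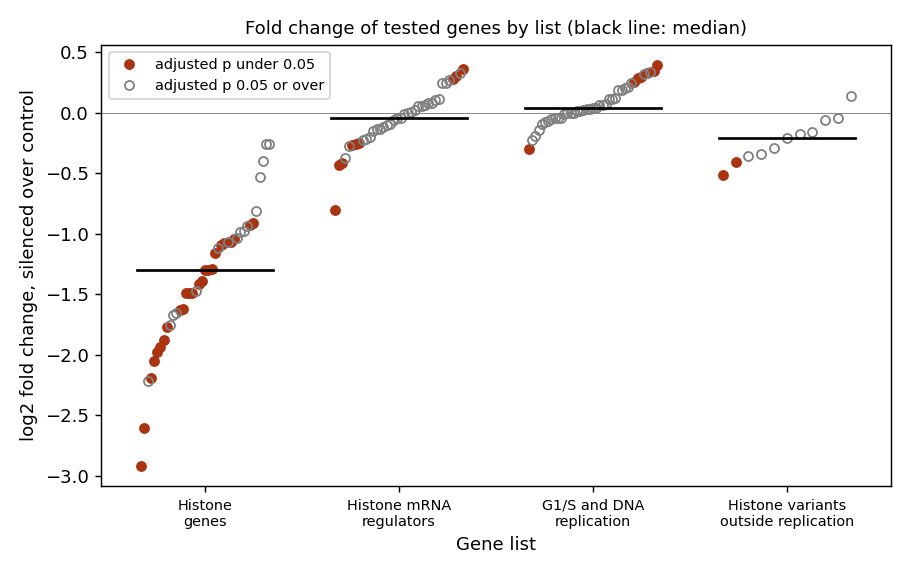
Log2 fold change of silenced over control (vertical axis) of each tested gene in 4 lists (horizontal axis), with filled points for an adjusted p under 0.05, open points for the others and a black line at the median. The histone genes are all below 0 with a median of -1.30, whereas the medians of the regulators, the replication genes and the replication-independent variants are -0.04, 0.04 and -0.21.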

How the data were processed

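The data were RNA-Seq libraries of A549 cells, 3 control and 3 silenced. The authors sequenced total RNA on an Ion Proton instrument, used MapSplice to count mapped reads per gene and compared the groups with DESeq, and the deposited table holds these counts without normalization. The processing notes name GRCh37. Treatment of strand and of reads with several matches is not given in the sources used here.

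All 40173 rows entered edgeR 4.0.16 in R 4.3.3: filterByExpr (minimum count 10), TMM scaling, the quasi-likelihood F test, and p-values adjusted after Benjamini and Hochberg for 15250 genes. Calls needed more than a 2-fold change at an adjusted p under 0.05. Standard errors were taken as the size of the log2 fold change over the root of F. CPM are counts scaled by the TMM-adjusted library total; class levels are sums of CPM. The fits were first tested on simulated data. Sequences were taken with Python 3.11.15 and pandas 2.3.3. GENCODE 29 transcripts were matched by gene symbol, and RefSeq promoters by the Entrez gene identifier that GENCODE gives.

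The histone genes and all gene lists were chosen with earlier results of these data known. Levels were named for up to 5 tested genes of each class with the highest mean count, every called gene in full or by range, any tested gene that was higher, SLBP, NPAT, LSM10, LSM11, ZNF473 and U7 snRNA, genes of the other lists at an adjusted p under 0.05 (at most 8 regulators and 6 of each other list by mean count), and FAM83H-AS1; 1 gene that this rule names is not reported here. Alternatives were DESeq2 1.42.0, RLE size factors, scaling by library size only, a fit of every gene with 1 count or more, the replicate number as a block, an adjusted p under 0.01, and each library left out. Scaling from mRNA other than histones, and leaving out both control replicate 3 and silenced replicate 1, were added after seeing the data.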

Additional observations from a re-analysis of the deposited data

How the results depend on the processing

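The number of histone genes called lower (23) became 45 with all genes with at least 1 count, 7 at an adjusted p under 0.01, 5 with both control replicate 3 and silenced replicate 1 left out, and between 8 and 30 with 1 library left out; it was 23 with RLE size factors, with library size only and with scaling from mRNA other than histones, and 24 with DESeq2. The number at an adjusted p under 0.05 (25) became 49, 7, 7 and between 8 and 31 under the same settings. The fit of all genes with at least 1 count gave smaller standard errors for genes such as HIST1H3C, as given above. No histone gene was called higher in any of these settings. The median log2 fold change stayed between -1.52 and -0.90 with 1 library left out. The summed levels by class stayed lower in each, between -1.40 and -1.12 for H1, -1.54 and -1.01 for H2A, -1.34 and -1.05 for H2B, -1.83 and -0.94 for H3 and -1.21 and -0.56 for H4 (log2). The genes whose groups did not overlap numbered between 26 and 33 with 1 library left out. A smaller group separates more easily. Over all tested genes the share was 17.5% with 6 libraries and 21.8% against control replicates 1 and 2 alone. It was not computed for the other libraries left out. At an adjusted p under 0.01, the regulators (9) became 2, the replication genes (7) 1, the variants (2) 1 and all genes called (326) 148. With all genes with at least 1 count, the variants became 4 and the genes called 583. With both libraries left out, the regulators became 3, the replication genes 0 and the genes called 195. With 1 library left out, the regulators ranged from 2 to 6, the replication genes from 1 to 4, the variants from 1 to 3 and the genes called from 200 to 335. HIST1H2BO turned to 0.018 without control replicate 3 (range with 1 library left out -1.46 to 0.018), HIST2H2AA3 turned to 0.58 without control replicate 3, to 0.29 without silenced replicate 2 (range -2.03 to 0.58) and to 0.82 with both libraries left out, and HIST2H4A turned to 0.11 without control replicate 1 (range -0.61 to 0.11). The causes of these changes were not tested. With the replicate number as a block, 28 histone genes were called lower, 30 had an adjusted p under 0.05 and the variants became 4. The labels do not say what a number stands for, and same-numbered libraries correlated by 0.124, 0.149 and 0.0670 in their deviations from the group means, so that the numbers were not taken to pair the libraries, although each control library correlated best with its own number. The study's list of changed genes also numbers the silenced replicates in another order than the deposited columns, whose numbers are used here. The histone counts per library were few (1061 to 6478 in all 89 rows), which limits the genes with low counts.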
